A study of Mus musculus with 4 samples.

Results

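The MHC class II genes described here are 9 genes: the class II chains H2-Aa, H2-Ab1 and H2-Eb1, the DM chains H2-DMa, H2-DMb1 and H2-DMb2, the DO chain H2-Ob, the invariant chain Cd74 and the transactivator Ciita. They were chosen by symbol, matched to Ensembl gene identifiers, and all 9 were found among the 38293 gene rows and passed the filter on low counts that kept 14330 genes. The data are RNA sequencing counts from 4 mammary tumours of FVB mice with the MMTV-Neu transgene, in which a mammary tumour virus promoter drives the Neu (Erbb2) oncogene. Wild-type animals (WT) gave 2 of the libraries and AXL knockout animals (AXL KO) the other 2. The labels give no age and do not say whether the replicates are separate animals, so p-values measure the spread between these libraries, which may be technical. Axl, the targeted gene, was at 61.8 and 35.2 CPM (gene counts divided by library size in units of 1e6 reads, with TMM factors) in WT and 4.75 and 4.89 CPM in AXL KO.

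MHC class II molecules are pairs of an alpha and a beta chain that show peptides to CD4 T cells. They are made mainly by dendritic cells, macrophages and B cells, and other cells can make them after interferon gamma. The invariant chain, encoded by Cd74, guides new class II molecules to endosomes and fills their groove until cathepsins cut it down. DM then exchanges the remaining fragment for peptides, and DO holds DM back. Ciita switches on these genes by joining a protein complex on their promoters that includes RFX, NF-Y and CREB. FVB mice carry the H2q haplotype, which lacks a working E alpha chain, so the E beta chain of H2-Eb1 has no normal partner in them.

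The stretches below were chosen for letters of the X box (bound by RFX and CREB) and the Y box (bound by NF-Y). Of them 4 hold both. That of H2-Aa holds the Y letters and no exact match to the X letters. Whether it holds an X box of other letters was not tested. RefSeq promoter windows on GRCm38.p6, of 300 bases from 250 before the start, were matched by symbol for 6 of the 9 genes, and H2-Ab1, Cd74 and Ciita were not in the table. Capitals mark AACNNATGA, spelled after the X boxes of these promoters, and TGATTGG, the Y box, each searched on both strands. The sequence is that of C57BL/6J, not of FVB.
H2-Eb1 (chr17:34305772-34305816, plus strand): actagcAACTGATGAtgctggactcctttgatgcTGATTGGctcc
H2-DMb1 (chr17:34153093-34153138, plus strand): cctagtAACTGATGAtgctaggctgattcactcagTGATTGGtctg
H2-DMb2 (chr17:34145122-34145167, plus strand): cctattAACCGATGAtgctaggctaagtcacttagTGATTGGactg
H2-Ob (chr17:34238814-34238856, plus strand): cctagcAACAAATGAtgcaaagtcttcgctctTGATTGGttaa
H2-Aa (chr17:34287863-34287912, minus strand): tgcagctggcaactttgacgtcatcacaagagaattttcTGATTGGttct

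The X letters began 26 to 29 bases before the Y letters in the 4 genes that held both. The Y letters began 50 bases before the start in H2-Aa, 61 in H2-Eb1, 63 in H2-DMb1, 92 in H2-DMb2 and 59 in H2-Ob. Of all 32851 promoter windows, 2.85% held the X letters, 7.82% the Y letters and 0.307% both. The X letters began 26 to 29 bases before the Y letters in 5 windows, those of these 4 genes and of BC051142. As the X letters and the spacing were read off these promoters, their match in 4 class II genes was fixed by that choice. Neither motif was in the 2 windows of H2-DMa. A match is a run of letters and was not tested as a binding site.

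The 9 genes together were most abundant in AXL KO replicate 2. Their summed level was 290.5 and 226 CPM in WT replicates 1 and 2 and 294 and 644 CPM in AXL KO replicates 1 and 2. AXL KO replicate 2 was the highest library for 9 of 9 genes, and WT replicate 2 was the lowest for 7. AXL KO replicate 1 lay below WT replicate 1 for 8 of the 9. AXL KO replicate 2 also had the most reads in genes, 33131739 against 18929743 to 21276336 in the others, and its description in the labels begins with another prefix than those of the other 3 libraries. That prefix holds 1 library, so it cannot be told apart from the tumour. In these bulk samples a change in the number of cells that make a transcript and a change in transcript per cell cannot be told apart.

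**Figure D1:**
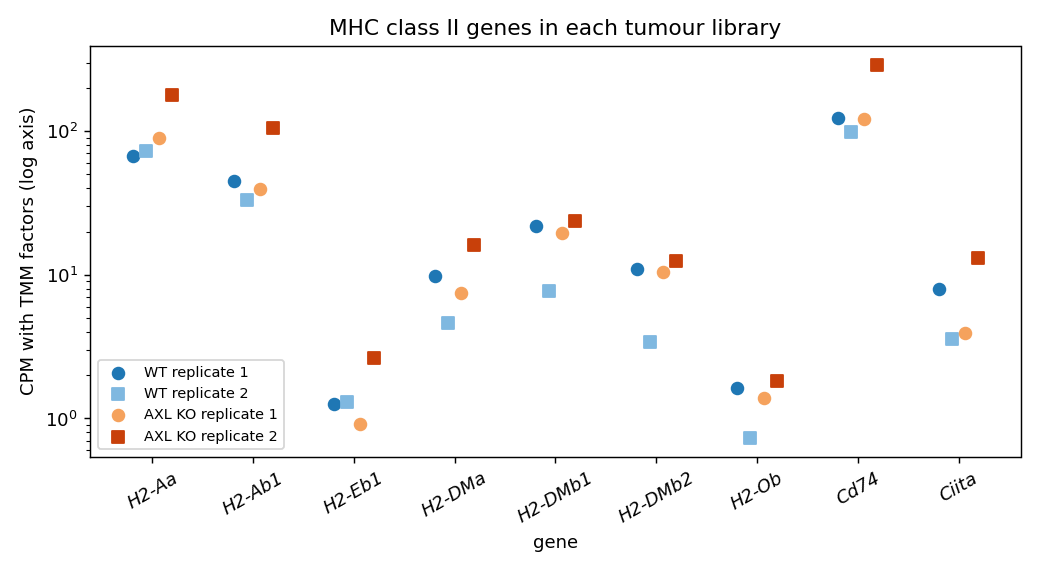
Each point is the level of 1 gene in 1 library, in CPM with TMM factors on a log axis, with WT in blue and AXL KO in orange and red. AXL KO replicate 2 is the highest point for all 9 genes, while AXL KO replicate 1 lies among or close to the WT points.

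H2-Aa, which encodes the A alpha chain, was the class II gene whose groups did not overlap. It lies on chromosome 17 from 34282744 to 34287823 on the minus strand (GRCm38) and is listed as ENSMUSG00000036594. Its level was 67.7 and 73.2 CPM in WT replicates 1 and 2 and 89.4 and 178.5 CPM in AXL KO replicates 1 and 2. Both AXL KO libraries were above both WT libraries, and the gap inside the AXL KO pair was wider than the gap between AXL KO replicate 1 and either WT library. The group means were 70.5 ± 3.92 CPM and 133.9 ± 63.0 CPM (SD, n = 2 each). The log2 difference was 0.93 ± 0.35 (SE), a 1.90-fold higher level in AXL KO with a 95% interval of 0.04 to 1.82 on the log2 scale. By edgeR's quasi-likelihood test the unadjusted p was 0.0439 and the adjusted p over all tested genes 0.9997, so it did not pass.

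H2-Ab1, which encodes the A beta chain that pairs with the H2-Aa product, was at 44.9 and 33.2 CPM in WT against 39.4 and 104.6 CPM in AXL KO. The groups overlapped, since AXL KO replicate 1 lay between the WT libraries. H2-Ab1 lies on chromosome 17 from 34257689 to 34269419 on the plus strand. Its log2 difference was 0.88 ± 0.48 (SE), with an interval of −0.34 to 2.11. The ratio of H2-Ab1 to H2-Aa reads was 0.664 and 0.453 in WT and 0.441 and 0.586 in AXL KO, so the beta to alpha balance overlapped between the groups.

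H2-Eb1, which encodes the E beta chain, was close to the floor of these libraries, with 27 and 25 reads in WT and 17 and 88 in AXL KO. These reads gave 1.26 and 1.31 CPM in WT and 0.908 and 2.64 CPM in AXL KO. The exact 95% Poisson interval, which covers counting error alone, was 2.12 to 3.25 CPM in AXL KO replicate 2 and reached at most 1.93 CPM in the other libraries. The high value of that library is thus outside counting error, and AXL KO replicate 1 was the lowest of the 4. H2-Eb1 reads were 2.81% and 3.94% of H2-Ab1 reads in WT and 2.30% and 2.52% in AXL KO. The log2 difference was 0.50 ± 0.62 (SE).

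Cd74, the invariant chain gene on chromosome 18, was the most abundant of the 9. Its level was 124 and 98.3 CPM in WT and 122 and 291 CPM in AXL KO. AXL KO replicate 1 lay between the WT libraries, and AXL KO replicate 2 stood 2.39-fold above its partner. The log2 difference was 0.89 ± 0.43 (SE), with an interval of −0.21 to 1.99. Cd74 kept close proportion to the chains it escorts: the ratio of Cd74 to the sum of H2-Aa and H2-Ab1 was 1.10 and 0.924 in WT and 0.944 and 1.03 in AXL KO.

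The DM beta chain genes had WT replicate 2 far below the other 3 libraries, which lay close together. H2-DMb1 was at 21.98 and 7.70 CPM in WT against 19.7 and 23.7 CPM in AXL KO. H2-DMb2 was at 11.04 and 3.40 CPM in WT against 10.5 and 12.5 CPM in AXL KO. For both DM beta genes WT replicate 1 lay between the 2 AXL KO libraries, and WT replicate 1 exceeded WT replicate 2 by 2.86-fold and 3.24-fold. H2-DMa, the DM alpha chain gene, was at 9.87 and 4.61 CPM in WT against 7.53 and 16.2 CPM in AXL KO, so it combined a low WT replicate 2 with a high AXL KO replicate 2. Log2 differences were 0.55 ± 0.51, 0.67 ± 0.58 and 0.71 ± 0.55 (SE) for H2-DMb1, H2-DMb2 and H2-DMa.

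The reads of the DM genes per read of H2-Aa and H2-Ab1 were 0.381 in WT replicate 1, 0.148 in WT replicate 2, 0.293 in AXL KO replicate 1 and 0.185 in AXL KO replicate 2. The share of DM was thus lowest in a WT library and next lowest in an AXL KO library, and the groups overlapped. H2-DMb1 and H2-DMb2 are neighbouring copies, and 22.7% and 25.9% of the 50-base stretches of their transcripts also occur in another gene, for the most part in each other. Their counts are uncertain for that reason, although the ratio of H2-DMb2 to H2-DMb1 held between 0.442 and 0.531 in the 4 libraries. H2-DMa overlaps Brd2 on the opposite strand and shares 8.43% of its stretches with other genes, so without the strand setting some of its reads may be Brd2 reads. Brd2 had 9163 and 6421 reads in WT and 7129 and 13091 in AXL KO, against 211, 88, 141 and 539 for H2-DMa.

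H2-Ob, which encodes the DO beta chain that restrains DM, was the least abundant class II gene per length. It had 35 and 14 reads in WT and 26 and 61 in AXL KO, or 1.64 and 0.733 CPM and 1.39 and 1.83 CPM. WT replicate 1 lay between the AXL KO libraries and WT replicate 2 was lowest, as for the DM beta genes. H2-Ob reads were 3.49% to 4.67% of DM reads in the 4 libraries. The log2 difference was 0.44 ± 0.55 (SE).

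Ciita, the transactivator of the family on chromosome 16 from 10480059 to 10528418, varied most within the AXL KO pair. It was at 7.95 and 3.56 CPM in WT against 3.95 and 13.02 CPM in AXL KO. The 2 AXL KO libraries held the highest and the second lowest value, 3.29-fold apart, and WT replicate 1 lay between them. The log2 difference was 0.57 ± 0.69 (SE), with an interval of −1.18 to 2.32. Ciita reads were 7.06% and 3.35% of H2-Aa plus H2-Ab1 reads in WT and 3.07% and 4.598% in AXL KO, so WT replicate 1 had the most Ciita for its class II level. Ciita overlaps Dexi on the opposite strand, with 1.46% of its stretches shared. Counts per gene do not show which of its alternative promoters was used.

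Deviations from each gene's mean were averaged over groups of the 9 genes set by their known roles. In WT replicate 2 the mean log2 deviation was −1.10 for the DM genes and −0.35 for the class II chains. In AXL KO replicate 2 it was 0.66 for the DM genes and 0.95 for the chains. WT replicate 1 was above average for the DM genes (0.32) and Ciita (0.36) and below average for the chains (−0.26) and Cd74 (−0.22). AXL KO replicate 1 was above average for the DM genes (0.12) and H2-Ob (0.06) and below it for the chains (−0.34), Cd74 (−0.24) and Ciita (−0.64). The groups were not found from the data, and the difference between them was not tested. Within the DM genes H2-DMa departed from the beta chain genes. In AXL KO replicate 1 it was at −0.195, against 0.231 for H2-DMb1 and 0.316 for H2-DMb2. In AXL KO replicate 2 it was at 0.898, against 0.496 and 0.574.

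**Figure D2:**
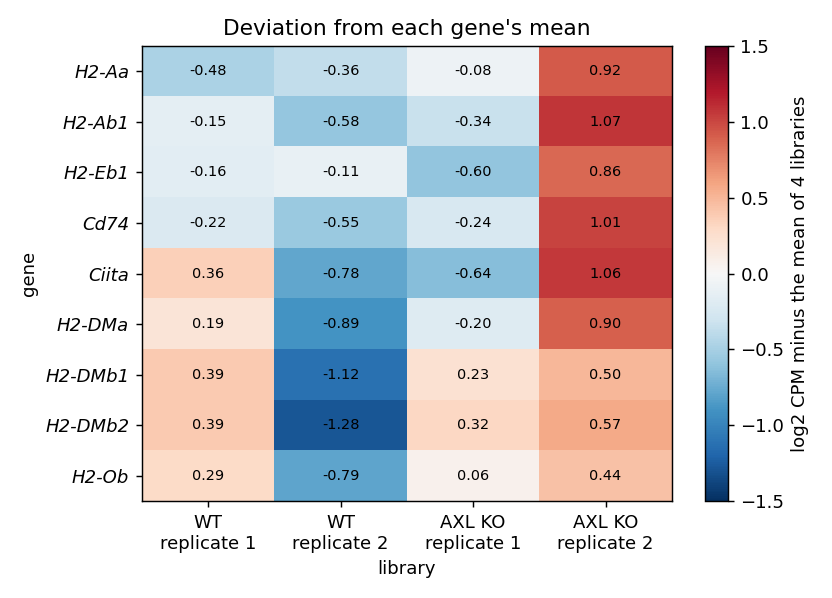
Each cell gives 1 gene in 1 library as log2 CPM minus the gene's mean over the 4 libraries, with red above and blue below that mean. The column of AXL KO replicate 2 is positive for all 9 genes, and the column of WT replicate 2 is most negative for H2-DMb2 (−1.28) and H2-DMb1 (−1.12).

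Per kilobase of annotated exon the levels fell in the order Cd74, H2-Aa, H2-Ab1, H2-DMb1, H2-DMb2, H2-DMa, H2-Eb1, Ciita and H2-Ob. The mean level over the 4 libraries was 94.6 CPM per kilobase for Cd74, 26.9 for H2-Aa and 21.6 for H2-Ab1. It was 10.9, 5.36 and 2.77 CPM per kilobase for H2-DMb1, H2-DMb2 and H2-DMa. For H2-Eb1, Ciita and H2-Ob it was 0.787, 0.747 and 0.26 CPM per kilobase. H2-Aa exceeded H2-Ab1 in each library, though by 17.8 against 17.5 CPM per kilobase in WT replicate 1. H2-Eb1 and Ciita changed places between libraries, with 0.649 against 0.834 in WT replicate 1 and 0.673 against 0.373 in WT replicate 2, so their order was not beyond the spread. Exon lengths count every annotated exon, and a gene with many rare exons is understated on this scale.

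With edgeR's quasi-likelihood test and a threshold of 0.05 on the adjusted p, 0 of the 9 class II genes passed, where 0% of all tested genes passed. Axl, the targeted gene, did not pass either, with an adjusted p of 0.9997 by that test. H2-Aa alone had an unadjusted p under 0.05, where 1.15% of tested genes were higher in AXL KO at that level. All 9 log2 differences were positive, and so were those of 49.7% of all tested genes. The median over the 9 was 0.67, and over all tested genes −0.0019. Both AXL KO libraries were above both WT libraries for 1 of the 9, or for 14.7% of all genes. For each of the 9 genes the ratio between the 2 libraries of at least one group exceeded the ratio between the group means. DESeq2 called 0 of the 9 as well, and 16 of all 14330 tested genes. Its unadjusted p was under 0.05 for 2 of the 9 and for 502 of the 14330. Limma-voom called 0 of 9, and its unadjusted p was under 0.05 for 0 of 9 and for 285 of the 14330.

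**Figure D3:**
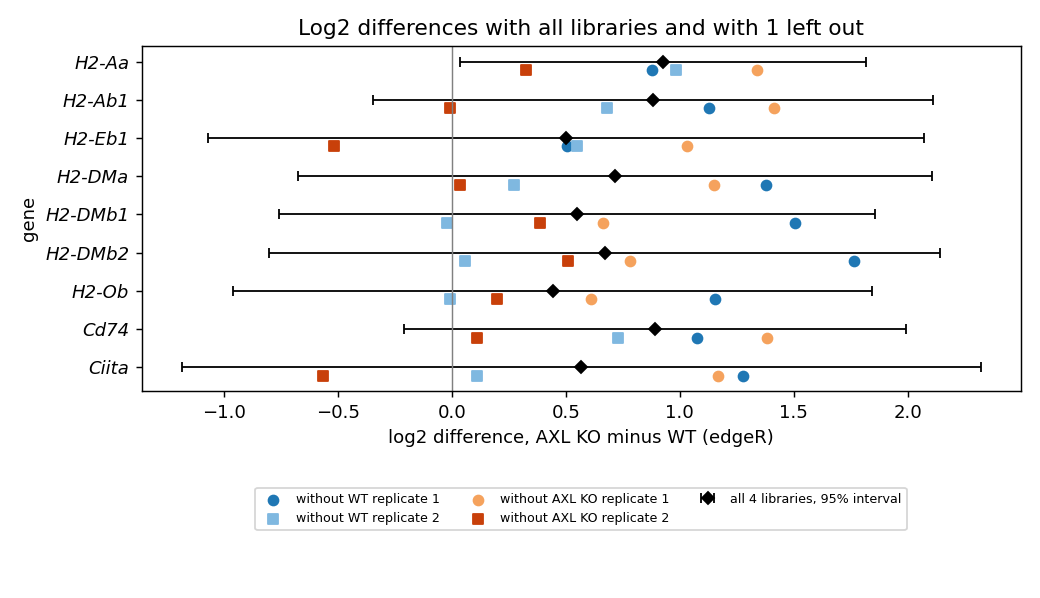
Diamonds give the edgeR log2 difference of AXL KO minus WT for each gene with its 95% interval, and coloured points the same difference with 1 library left out. The interval of H2-Aa begins at 0.04 and those of the other 8 genes include 0, and the points without AXL KO replicate 2 lie at −0.52 for H2-Eb1 and −0.56 for Ciita.

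The size of the difference depended on single libraries. Without AXL KO replicate 2, which leaves the libraries of the first prefix, the median was 0.11 and 6 of 9 differences were positive. H2-Aa was then at 0.33, Cd74 at 0.11, H2-Ab1 at −0.0063, H2-Eb1 at −0.52 and Ciita at −0.56. AXL KO was above both WT libraries for 1 gene and below both for 1. Of all genes 28.2% were above, and 4642 of 14741 were below. Without WT replicate 2 the median was 0.27 and 7 of 9 were positive. The DM beta genes and H2-Ob were then close to 0, with H2-DMb1 at −0.02, H2-DMb2 at 0.06 and H2-Ob at −0.0082, while H2-Aa stayed at 0.98 and Cd74 at 0.73. Both AXL KO libraries were then above WT replicate 1 for 1 gene (33.2% of all genes).

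Leaving out either of the other libraries raised the median. It was 1.16 without WT replicate 1, with AXL KO above WT replicate 2 for 8 of 9 genes, where 40.3% of all genes were. The largest differences in that fit were those of H2-DMb2 (1.765) and H2-DMb1 (1.504). Without AXL KO replicate 1 the median was 1.15, with AXL KO replicate 2 above both WT libraries for 9 of 9 genes, where 25.9% of all genes were. H2-Aa, H2-DMa, H2-DMb2 and Cd74 had a positive difference in each of the 4 fits with 1 library left out, with values from 0.33 to 1.34 for H2-Aa. A fit with 1 library in a group assumes that this library varies like the other group.

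The genes around the class II family were counted from 11 lists of pathway genes and cell markers. Of their 85 tested members 0 passed edgeR's test and 0 had an unadjusted p under 0.05, so the values below describe libraries and not a difference between genotypes. Transcripts of the proteins that sit with CIITA on the promoter were nearly level. For these 7 genes the median log2 difference was 0.10, and the sum was 251 and 298 CPM in WT and 292 and 268 CPM in AXL KO. The median turned to −0.07 without WT replicate 1 and −0.06 without AXL KO replicate 1. Rfx5, an RFX subunit gene, was at 22.4 and 28.2 CPM in WT against 31.7 and 28.8 CPM in AXL KO. Rfxap, another subunit gene, was at 20.3 and 18.3 CPM in WT against 17.7 and 16.3 CPM in AXL KO, and the NF-Y gene Nfyb had a log2 difference of 0.13 ± 0.22 (SE).

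The interferon gamma route to Ciita had a median of 0.17 over 9 tested genes, which was 0.02 without WT replicate 2. Ifng itself, the cytokine gene, had 2 reads in each replicate 1 and 0 in each replicate 2, below the filter. Socs1, a feedback inhibitor gene, was at 1.64 and 0.471 CPM in WT against 1.76 and 2.999 CPM in AXL KO, and the kinase gene Jak1 had a log2 difference of 0.30 ± 0.20 (SE). Whether these levels bear on the class II genes was not tested.

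The antigen processing list had 8 of 10 positive differences and a median of 0.09, which turned to −0.05 without WT replicate 2. Ifi30, the lysosomal thiol reductase gene, had 87.2 and 122 CPM in WT and 70.6 and 72.6 CPM in AXL KO, against the direction of the class II genes. Napsa, an aspartic protease gene, was at 1.22 and 0.628 CPM in WT against 1.44 and 3.42 CPM in AXL KO. The intramembrane protease gene Sppl2a, whose product clears the last fragment of the invariant chain, had a log2 difference of 0.30 ± 0.20 (SE). Ctss, the cathepsin S gene for the final cut of the invariant chain, was chosen after its values were seen, with 230 and 99.2 CPM in WT and 213 and 248 CPM in AXL KO. Its order of libraries was that of the DM beta genes.

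Genes of class II traffic and turnover had 4 of 10 positive differences and a median of −0.02. Flot1, a lipid raft gene, was at 66.1 and 75.7 CPM in WT against 54.3 and 54.2 CPM in AXL KO. The tetraspanin gene Cd82 and the adaptor gene Ap1m1 had log2 differences of −0.46 ± 0.28 and 0.27 ± 0.22 (SE). Of the co-stimulation genes 5 of 8 were tested, with a median of 0.44 that was 0.13 without WT replicate 2. Cd274, which encodes PD-L1, was at 7.01 and 1.41 CPM in WT against 7.42 and 12.8 CPM in AXL KO, and Icosl and Cd86 had differences of 0.45 and 0.44.

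The 13 dendritic cell markers summed to 56.4 and 35.0 CPM in WT and to 47.1 and 63.7 CPM in AXL KO, with a median log2 difference of 0.44 that was 0.23 without AXL KO replicate 2 and 1.21 without WT replicate 1. Flt3 was at 0.982 and 0.366 CPM in WT against 1.76 and 1.74 CPM in AXL KO, and Xcr1, which marks cross-presenting dendritic cells, at 1.26, 0.366, 2.03 and 2.43 CPM in the same order. Irf4 was under 1 CPM in each library and had a log2 difference of 1.45 ± 0.63 (SE). These 3 markers have the smallest p of the list, in which 10 of 13 differences were positive. Zbtb46, Batf3 and Fscn1, chosen after their values were seen, were at −0.20, −0.32 and −0.28. Both AXL KO libraries were above both WT libraries for 6 of the 13 markers, against 14.7% of all genes tested. The class II sum per dendritic marker sum was 5.15 and 6.46 in WT and 6.25 and 10.1 in AXL KO.

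The 14 macrophage and monocyte markers summed to 917 and 634 CPM in WT and to 793 and 1042 CPM in AXL KO, with a median of 0.18 that turned to −0.07 without WT replicate 2. Lyz2 was at 353 and 288 CPM in WT against 358 and 455 CPM in AXL KO, and Fcgr1 and Ly6c2 had differences of 0.68 ± 0.61 and 1.77 ± 0.93 (SE). Of the 14 markers 12 had positive differences, and Cd163 and Mrc1, chosen after their values were seen, were at −0.61 and −0.17. Per macrophage marker sum the class II sum was 0.317 and 0.357 in WT and 0.371 and 0.618 in AXL KO. The sum of the 10 B cell markers was 5.56 and 2.88 CPM in WT and 3.79 and 3.39 CPM in AXL KO, and 2 of them passed the filter, Cd22 and Cd79b, at differences of 0.04 and 0.50. In AXL KO replicate 2 the B cell genes Ms4a1 and Cd79a had 1 read each, Cd79b 17 and Cd22 86.

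CD4 T cell markers, the side that reads class II, summed to 18.7 and 3.09 CPM in WT and to 8.71 and 14.2 CPM in AXL KO. Of the 9 markers 6 were tested, with a median of 0.17. It turned to −0.67 without WT replicate 2 and −0.55 without AXL KO replicate 2. It rose to 2.79 without WT replicate 1 and 0.54 without AXL KO replicate 1. Cd4 was at 6.69 and 1.20 CPM in WT against 2.14 and 3.39 CPM in AXL KO, and Cd3g and Cd3d had differences of 0.65 and 0.70. In the labelled mammary tumour tissue the epithelial markers summed to 14280 and 16510 CPM in WT and to 23110 and 23060 CPM in AXL KO. Erbb2, the gene family of the transgene, made up most of these sums, at 10970 and 12590 CPM in WT and 19780 and 19980 CPM in AXL KO. Of the 8 markers 3 had positive differences, and the list median was −0.08. The keratin genes Krt18, Krt7 and Krt8 had differences of −0.65, −0.69 and −0.40, and the keratin gene Krt19, chosen after its values were seen, one of 0.45. The part of cell makeup in the class II levels was not tested.

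**Figure D4:**
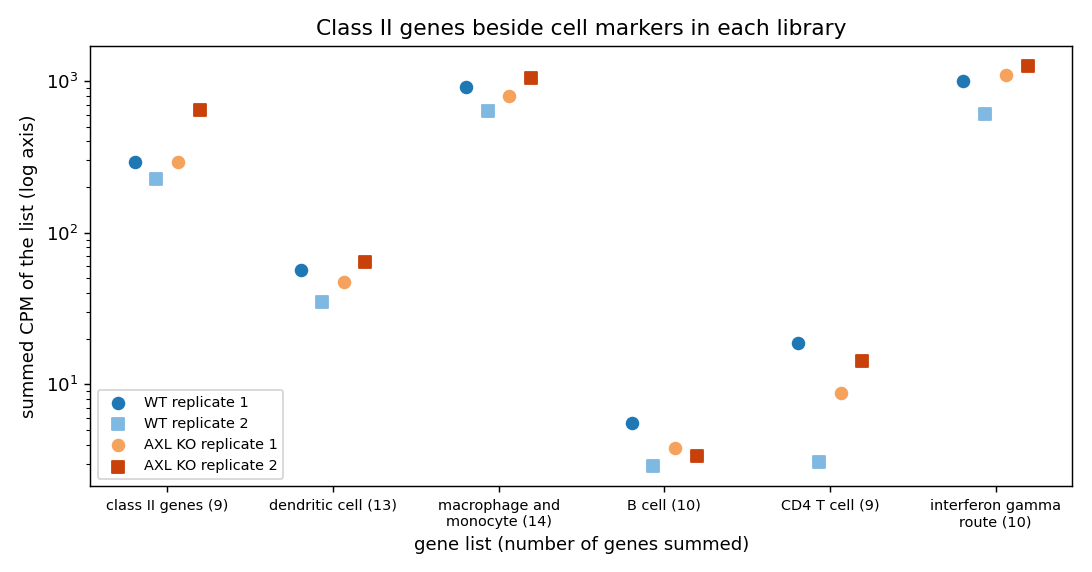
Each point is the summed CPM of a gene list in 1 library, on a log axis, with the number of genes summed in brackets. The class II sum of AXL KO replicate 2 (644 CPM) stands apart from the other 3 libraries (226 to 294 CPM). Its dendritic and macrophage sums are also the highest, at 63.7 and 1042 CPM against 56.4 and 917 CPM in WT replicate 1. Its B cell sum lies below that of WT replicate 1.

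Other class II loci were at or near the limit of detection. H2-Oa, which encodes the DO alpha chain, had 9 and 4 reads in WT and 8 and 22 in AXL KO, and H2-Eb2 had 3, 1, 2 and 7 reads in the same order, so neither passed the filter. H2-Ea-ps, the E alpha locus that is a pseudogene in the reference strain, had 10 and 10 reads in WT and 17 and 57 in AXL KO. These gave 0.468 and 0.524 CPM in WT and 0.908 and 1.71 CPM in AXL KO, with both AXL KO libraries above both WT libraries. The log2 difference was 1.42 ± 0.57 (SE), with an unadjusted p of 0.054 by edgeR, which did not pass. It was 0.85 without AXL KO replicate 2.

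Genes nearest to the mean pattern of the class II family were sought among 10320 other genes with a mean of at least 5 CPM. The measure was the root mean square distance of log2 CPM deviations over the 4 libraries. Genes without a symbol, with a Gm-number or Rik symbol, or on chromosome 18, where Cd74 lies, were not searched. The nearest 6 were Sema3g (0.0975), Pid1 (0.105), Lama1 (0.124), Dock10 (0.132), Sla (0.133) and Slfn9 (0.147), where the median gene was at 0.575. The class II genes themselves lay from 0.116 for H2-DMa to 0.421 for H2-DMb2. Slfn9, a Schlafen family gene, was at 45.1 and 31.7 CPM in WT against 50.9 and 86.8 CPM in AXL KO, and Sla, which encodes a Src-like adaptor, at 8.74, 4.08, 7.21 and 12.2 CPM. With 4 libraries such likeness is a description of these tumours.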

How the data were processed

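The deposited files hold whole-number read counts per gene, not normalised, 1 file per library, per the file contents; the authors made them from RNA extracted from tumours. GRCm38 is named in the submitters' processing notes, next to HTSeq 0.5.3, TopHat2 2.0.10, DESeq2 1.4.5 and CASAVA 1.8, without roles. For the strand setting and annotation release, nothing is given in the sources used here. The 5 summary lines per file stayed out of all totals. They hold 5.28% to 8.11% of reads outside genes, 0.635% to 1.85% ambiguous and 23.2% to 28.1% of alignments that were not unique. Symbols, positions and exon lengths came from GENCODE M21, which matched 36345 of 38293 identifiers.

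Genes were filtered with filterByExpr, scaled with TMM factors and tested with edgeR 4.0.16 (glmQLFit, glmQLFTest; R 4.3.3), with Benjamini-Hochberg adjustment over all 14330 genes and a threshold of 0.05. Standard errors and 95% intervals were derived from the quasi-likelihood statistic. The test was run on simulated counts that had a single dispersion for all genes. That run does not show how well the test finds changed genes in these libraries. The alternatives were DESeq2 1.42.0, limma-voom (limma 3.58.1), DESeq2 size factors, library totals, other filters, the replicate number as a block and each library left out. Named were the class II genes, Axl, Erbb2, the 3 list genes with the smallest p and the 6 nearest patterns. Deviations use log2 CPM with a prior count of 2. Pairs of libraries differed by a chi-square of 30.3 to 151 per degree of freedom, so none was a copy of another. The members and lists were chosen with earlier results of these data known. Of the genes this rule names, a few are left out of the text.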

Additional observations from a re-analysis of the deposited data

How the results depend on the processing

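With 2 libraries a group, the count of class II genes called was 0 under each of the alternatives run, which says nothing on the size of their differences. Over all genes edgeR called 0, DESeq2 16, and edgeR with 1 library left out between 0 and 246, the latter without WT replicate 1. The count of class II genes with AXL KO above WT was 1 with all libraries, where 14.7% of all genes were above. It ran from 1 to 9 with 1 library left out. It was 8 without WT replicate 1 (40.3% of all genes) and 9 without AXL KO replicate 1 (25.9%). It was 1 without WT replicate 2 (33.2%) and 1 without AXL KO replicate 2 (28.2%). The class II median of 0.67 ran from 0.11 to 1.16 with 1 library left out, and from 0.65 to 0.73 under the other alternatives. Of 99 single-gene values under alternatives, 94 kept their direction and stayed short of the threshold. The 5 others turned negative: H2-Ab1 (−0.0063), H2-Eb1 (−0.52) and Ciita (−0.56) without AXL KO replicate 2, and H2-DMb1 (−0.020) and H2-Ob (−0.0082) without WT replicate 2, where the cause was not tested. With 1 library left out these 5 reached at most 1.42, 1.03, 1.28, 1.504 and 1.16 in the same order. Axl passed in DESeq2 and in edgeR without WT replicate 1. Same-numbered libraries did not deviate together (correlation −0.045), but with 2 libraries a group this cannot settle whether the numbers pair the samples. The replicate block gave 0 calls over all genes, 0 class II calls and a median of 0.73. It had 1 class II gene above, and 2111 of all 14330 genes. Depth limits H2-Eb1 and H2-Ob, with 14 to 88 reads a library.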
